A study of Bos indicus with 9 samples.

Results

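The angiopoietin, endothelin and vascular tone genes examined here are ANGPT1, ANGPT2, TEK, TIE1, EDN1, EDNRA, EDNRB, ECE1, NOS3 and AGTR1. They were chosen by gene symbol in the array's probe table, which gave 10 genes with 12 probe sets among 9154 named genes and 24005 tested probe sets. Luteal RNA was measured on Affymetrix bovine arrays, 1 array per cow, in 3 groups of 3 animals. Superovulated cows were given the higher dose of equine chorionic gonadotropin (eCG), 2000 IU, on protocol day 4. Stimulated cows were given the lower dose, 400 IU, on protocol day 8, and control cows were given no eCG. All animals were Nelore crossbred (Bos indicus) cows, 2 to 5 years old, synchronised with progesterone devices and estradiol benzoate, and their corpora lutea were taken at slaughter on day 6 after ovulation. Dose and day of eCG changed together, so the treated groups cannot be compared for either alone. The labels do not say which of several corpora lutea of a superovulated cow was used.

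The corpus luteum is the progesterone-secreting gland that forms from the ovulated follicle, and it fills with new capillaries within days. eCG, made by the placenta of mares, binds the receptors of both follicle-stimulating and luteinising hormone in cattle. Angiopoietin 1 (ANGPT1), released mainly by pericytes and other cells around vessels, activates the endothelial receptor TEK, also called TIE2, and steadies vessels. Angiopoietin 2 (ANGPT2), stored in endothelial cells, opposes it in many settings and loosens vessels for sprouting or regression, and TIE1 is a partner receptor that modulates TEK. Endothelin 1 (EDN1) is a constrictor peptide cut to its active form by the protease ECE1; in the bovine corpus luteum it is known to reduce progesterone output through the receptor EDNRA. EDNRB is the second endothelin receptor, NOS3 makes the vessel relaxant nitric oxide in endothelium, and AGTR1 is the main receptor for the constrictor angiotensin II.

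Signals are read as log2 values, a scale taken from their range and not stated in the labels, and since each probe set has its own response, every gene is compared between animals and never with another gene. The tissue carried its defining markers. STAR, CYP11A1 and HSD3B1, which deliver and convert cholesterol for progesterone, averaged 14.74, 14.13 and 14.42 over the 9 arrays, above 99.9%, 99.6% and 99.8% of all probe sets. Among endothelial markers PECAM1 averaged 10.59 and CDH5 9.25, whereas the probe sets of VWF and KDR were dim at 2.19 and 2.45, with 9.49% and 17.2% of probe sets below them. Superovulated replicate 2 stood slightly apart, with a median correlation to the other arrays of 0.988 against 0.990 to 0.992 for the rest. The epithelial keratin KRT19 was 5.03 in that animal and 2.39 to 2.61 in the other 8. The other epithelial markers did not follow as a set. KRT7 (2.81) and CLDN4 (3.24) were also highest there, by small margins and at dim signals. EPCAM (2.50), CDH1 (4.18), MUC1 (3.06) and OVGP1 (2.97) were each higher in at least 1 other animal. Each array came from whole tissue, in which fewer cells of a type and less RNA per cell cannot be told apart.

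None of the 10 genes passed the test in any comparison. The 2 patterns that stood out were a higher ANGPT1 signal in stimulated corpora lutea than in either of the other groups, by about 0.9 log2 units and short of the threshold, and a very wide spread of ANGPT2 and EDN1 between animals given the same treatment. The receptors TEK and TIE1 and the nitric oxide synthase NOS3 showed no difference beyond their spread.

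**Figure D1:**
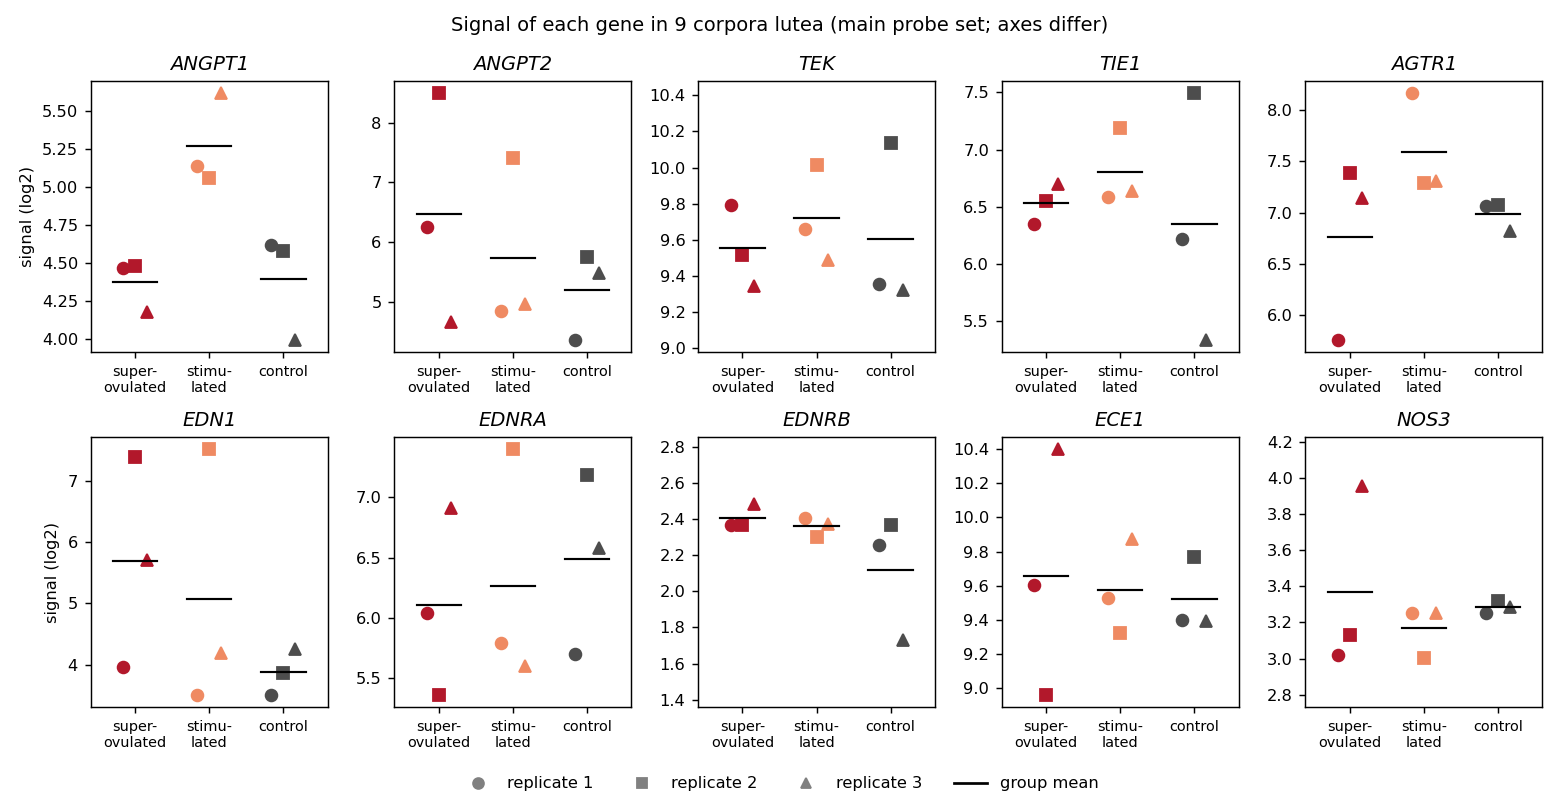
Signal (log2, vertical axes, which differ between panels) of the main probe set of each gene in the 3 superovulated, 3 stimulated and 3 control animals; symbols mark the replicate number and bars the group mean. The 3 stimulated animals lie above the other 6 for ANGPT1, and replicate 2 of the superovulated and stimulated groups holds the highest signals of ANGPT2 and EDN1.

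Among the angiopoietin ligands, ANGPT1 had signals of 4.47, 4.48 and 4.18 in superovulated animals, 5.14, 5.06 and 5.62 in stimulated animals and 4.62, 4.58 and 4.00 in control animals. Every stimulated animal was above every superovulated and every control animal, while the superovulated and control values overlapped. The means were 4.38 ± 0.17 in superovulated, 5.27 ± 0.30 in stimulated and 4.4 ± 0.35 in control corpora lutea (SD, n = 3 each). Stimulated exceeded control by a log2 fold change of 0.87 (95% interval 0.39 to 1.36), which is 1.83-fold. In limma's moderated test this had an unadjusted p of 0.00328 and an adjusted p of 0.528, so it did not pass over 24005 probe sets. It ranked 145 among all probe sets by p. Superovulated was below stimulated by a log2 fold change of -0.89 (95% interval -1.38 to -0.41; limma adjusted p = 0.358), and superovulated against control gave -0.02 (95% interval -0.51 to 0.46; limma adjusted p = 0.994). Both intervals that involve the stimulated group lie on one side of 0 before adjustment.

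In both comparisons with the stimulated group the ANGPT1 groups did not overlap, so leaving out a single array could change only the size of the difference. Stimulated against control ran from 0.67 without control replicate 3 to 0.98 without control replicate 1. Superovulated against control ran from -0.22 to 0.09 in the same way. The group means of ANGPT1 accounted for 76.5% of its variation across the 9 arrays, against a median of 25.5% over all probe sets. This share is no separate support, as it restates what the F test over the 3 groups measures. ANGPT1 did not pass that test (limma F test adjusted p = 0.492). Markers of other cell types also stood at different levels in these groups. The level of macrophage and myeloid markers, summed as the mean of 11 measured genes of 14 listed, was 6.29 to 7.48 in superovulated, 6.61 to 7.77 in stimulated and 5.19 to 6.38 in control animals. Of these 11 genes, 7 had a higher signal in stimulated than in control animals at an unadjusted p under 0.05, and none lower. Over all 9154 genes, 384 were higher and 282 lower in that comparison, which is also the background for the marker counts that follow. Markers of pericytes and smooth muscle (11 of 12 measured) ranged from 8.52 to 9.21 in superovulated, 8.31 to 9.01 in stimulated and 8.48 to 9.03 in control animals. None of the 11 had an unadjusted p under 0.05 in any comparison. Their log2 fold changes were positive for 3 of 11 in stimulated against control (49.2% of all genes), with a median of -0.09. In superovulated against stimulated all 11 were positive (53.2% of all genes), with a median of 0.30. In superovulated against control 10 were positive (53.3% of all genes), with a median of 0.13. The mean of 4 neutrophil markers was lowest in all 3 stimulated animals, at 6.23 to 6.59 in superovulated, 4.54 to 5.27 in stimulated and 5.74 to 6.73 in control animals. That mean was carried by S100A8 and S100A9, with log2 fold changes of -2.39 and -3.57 in stimulated against control, while MPO had -0.05 and ELANE 0.18, both at dim signals. At an unadjusted p under 0.05, 1 of these 4 was higher and 2 were lower. Markers of T and NK cells (11 of 12 measured) averaged 3.21 to 3.50 in superovulated, 3.34 to 4.22 in stimulated and 3.05 to 3.46 in control animals. Of these 11, 9 had a positive value in stimulated against control (49.2% of all genes), with a median of 0.40. At an unadjusted p under 0.05, 3 were higher, namely CD8A (1.23), GNLY (1.83) and NKG7 (0.70). A second, dimmer NKG7 probe set had 0.001. GNLY overlapped between the groups, at 4.39 in stimulated and 4.74 in control replicate 2. CD8A was 5.13, 3.18 and 3.76 in stimulated animals against 2.52 to 3.15 in control animals. The difference between 3' and 5' probe sets of array controls is a sign of RNA quality. For cyclophilin it was 0.23 to 0.31 in superovulated, 0.24 to 0.32 in stimulated and 0.14 to 0.18 in control animals. Stimulated and control animals overlapped in the actin, EF1A, eIF-4E and GST controls. GAPDH parted them barely, at -0.025 in the lowest stimulated and -0.026 in the highest control animal. Superovulated animals lay above all control animals for eIF-4E and GST, and overlapped them for actin, EF1A and GAPDH. The part of these values in the ANGPT1 result was not tested.

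ANGPT2 behaved differently, with signals of 6.25, 8.49 and 4.67 in superovulated animals, 4.84, 7.40 and 4.97 in stimulated animals and 4.37, 5.74 and 5.48 in control animals. Its range of 4.13 log2 units was set by superovulated replicate 2, the highest, and control replicate 1, the lowest, and all 3 groups overlapped. The means were 6.47 ± 1.92 in superovulated, 5.74 ± 1.45 in stimulated and 5.20 ± 0.73 in control corpora lutea (SD, n = 3 each). The log2 fold change was 1.27 for superovulated against control (95% interval -1.14 to 3.69; limma adjusted p = 0.874) and 0.54 for stimulated against control (95% interval -1.87 to 2.95; limma adjusted p = 0.952). Superovulated against stimulated gave 0.73 (95% interval -1.68 to 3.15; limma adjusted p = 0.854). The first of these was 0.26 without superovulated replicate 2 and 2.18 without superovulated replicate 3. Stimulated against control turned to -0.29 without stimulated replicate 2, and superovulated against stimulated turned to -0.28 without superovulated replicate 2. The mean differences of ANGPT2 thus rested on single animals.

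The angiopoietin receptors varied less within groups than ANGPT2, though more than ANGPT1. TEK had signals of 9.79, 9.52 and 9.35 in superovulated animals, 9.66, 10.01 and 9.49 in stimulated animals and 9.36, 10.14 and 9.32 in control animals. The highest value was that of control replicate 2, and the groups overlapped. Group means lay between 9.55 in superovulated and 9.72 in stimulated animals, with 9.61 in control. The 95% interval of the log2 fold change was -0.62 to 0.51 for superovulated against control and -0.45 to 0.68 for stimulated against control, so differences above 0.7 log2 units lie outside both. For superovulated against stimulated it was -0.73 to 0.40 about a value of -0.17.

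TIE1 had 6.35, 6.55 and 6.70 in superovulated animals, 6.58, 7.19 and 6.64 in stimulated animals and 6.22, 7.49 and 5.34 in control animals. Its highest and lowest signals were both in control animals, replicates 2 and 3. The means were 6.53 ± 0.18 in superovulated, 6.80 ± 0.34 in stimulated and 6.35 ± 1.08 in control corpora lutea (SD, n = 3 each). Superovulated against control gave a log2 fold change of 0.18 and stimulated against control 0.45 (limma adjusted p = 0.971 and 0.906). Superovulated against stimulated gave -0.27 (limma adjusted p = 0.884). Without control replicate 2, whose TIE1 signal was the highest, the values against control were 0.75 for superovulated (limma adjusted p = 0.800) and 1.02 for stimulated animals (limma adjusted p = 0.549), and without control replicate 3 they were -0.32 and -0.05.

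The mean of the endothelial markers was set beside these receptors animal by animal. It covered 13 measured genes of 15 listed and was 7.09 to 7.60 in superovulated, 7.29 to 7.76 in stimulated and 6.76 to 7.66 in control animals. Within the control group it was highest in replicate 2, at 7.66 against 6.76 and 6.89, as were TEK and TIE1. Within the stimulated group it was highest in replicate 2 (7.76), again as TEK and TIE1 were. The superovulated group differed, as its marker mean was highest in replicate 2 (7.60) and lowest in replicate 3 (7.09), while TEK was highest in replicate 1 and TIE1 in replicate 3. In superovulated against control 11 of the 13 endothelial markers had a positive log2 fold change (53.3% of all genes), with a median of 0.21, and in stimulated against control all 13 had one (49.2% of all genes), with a median of 0.29 and 0 at an unadjusted p under 0.05. In superovulated against stimulated 6 of 13 were positive (53.2% of all genes). FLT1, a receptor for vascular endothelial growth factor, had -0.51 in superovulated against control and -0.73 in superovulated against stimulated (limma adjusted p = 0.802 and 0.379).

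Of the endothelin genes, EDN1 had the widest spread, with signals of 3.97, 7.38 and 5.70 in superovulated animals, 3.51, 7.52 and 4.20 in stimulated animals and 3.51, 3.87 and 4.26 in control animals. The highest signal among controls lay below 2 of the 3 superovulated animals and below 1 of the 3 stimulated animals, and both treated groups also held values inside the control range. The SD was 1.71 in superovulated and 2.14 in stimulated animals against 0.38 in control (n = 3 each). The log2 fold change was 1.80 for superovulated against control (95% interval -0.85 to 4.46; limma adjusted p = 0.853) and 1.19 for stimulated against control (95% interval -1.46 to 3.85; limma adjusted p = 0.899). Without stimulated replicate 2 stimulated against control was -0.03, and without superovulated replicate 2 superovulated against control was 0.95. Superovulated against stimulated gave 0.61 (limma adjusted p = 0.892), with -0.24 without superovulated replicate 2 and 1.83 without stimulated replicate 2.

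The animals with the highest EDN1 were those with the highest ANGPT2, namely replicate 2 of the superovulated and of the stimulated group. Among control animals ANGPT2 was also highest in replicate 2 (5.74), whereas EDN1 was highest in replicate 3 (4.26). The endothelial marker mean was highest in replicate 2 of all 3 groups. Other measures were also extreme in the superovulated and stimulated replicate 2 arrays. The macrophage and myeloid mean was highest there, at 7.48 and 7.77, against 5.19 to 7.13 in the other 7 animals. The mean of 8 fibroblast markers was also highest there, at 12.17 and 11.77 against 11.04 to 11.69. COL1A1, COL1A2, COL3A1, DCN and LUM were each highest in these 2 arrays, and the remaining markers were not. PDGFRA was highest in the superovulated one (11.14) but 8.61 in the stimulated one. FBLN1 (10.77 and 10.81) lay below all controls in both, as it did in every other treated animal. THY1 was lowest of all animals in the superovulated one (5.52). The difference between 3' and 5' probe sets of the eIF-4E control was 3.04 and 2.97 in them and 2.68 to 2.85 in the others. That of cyclophilin was also highest there, but barely, at 0.312 and 0.321 against 0.309 in stimulated replicate 3. The actin, GAPDH, EF1A and GST controls did not set both arrays apart. For actin the values were -0.64 and -0.46, with control replicate 2 between them at -0.53. The part of these values in the spread of EDN1 and ANGPT2 was not tested.

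**Figure D2:**
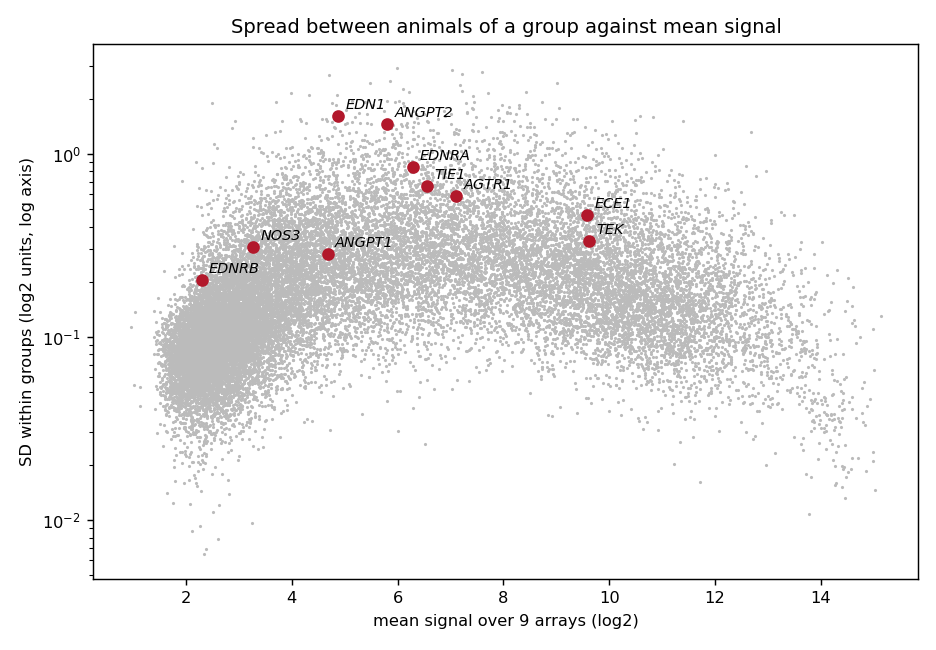
SD between animals of the same group (log2 units, vertical log axis, pooled over the 3 groups) against mean signal over the 9 arrays (log2) for 24005 probe sets in grey and the 10 genes in red. EDN1, at 1.60, and ANGPT2, at 1.45, lie near the upper edge for their signal, while ANGPT1, at 0.28, lies in the middle of the cloud.

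The spread within groups was 1.60 log2 units for EDN1 and 1.45 for ANGPT2, above those of 99.7% and 99.6% of all probe sets, whose median was 0.15. Set against probe sets with a mean within 0.5 log2 units, where spread is larger in general, EDN1 was above 99.6% of 1783 and ANGPT2 above 98.6% of 1490. EDNRA at 0.84 was above 92.4% of its neighbours in signal, TIE1 at 0.66 above 87.3%, and TEK at 0.33 above 75.5%. ANGPT1 at 0.28 was close to the middle, above 57.9%. All 10 genes had a within-group spread above the median of probe sets with like signal.

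The endothelin receptor EDNRA had signals of 6.04, 5.36 and 6.91 in superovulated animals, 5.79, 7.40 and 5.60 in stimulated animals and 5.71, 7.19 and 6.58 in control animals. The groups overlapped throughout. Superovulated against control had a log2 fold change of -0.38 (95% interval -1.79 to 1.02; limma adjusted p = 0.943) and stimulated against control -0.23 (95% interval -1.63 to 1.18; limma adjusted p = 0.969). Superovulated against stimulated gave -0.16 (95% interval -1.56 to 1.25). With single arrays left out, superovulated against control ran from -0.79 without superovulated replicate 3 to -0.01 without superovulated replicate 2. Stimulated against control ran from -0.79 without stimulated replicate 2 to 0.12 without control replicate 2, and superovulated against stimulated from -0.56 without superovulated replicate 3 to 0.41 without stimulated replicate 2. The direction of the EDNRA difference thus hung on single animals in both comparisons with the stimulated group. Superovulated replicate 2, with the highest ANGPT2, had the lowest EDNRA, whereas stimulated replicate 2 had the highest.

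EDNRB was dim, with 12.6% of probe sets below its mean, and had 2.37, 2.37 and 2.48 in superovulated animals, 2.41, 2.30 and 2.38 in stimulated animals and 2.25, 2.37 and 1.73 in control animals. Superovulated replicates 1 and 2 and control replicate 2 carried the same value to the last digit. Ties between arrays occurred in 63.0% of the dimmest probe sets (those below the 0.25 quantile of the means) and in 17.2% of the brightest (an equal number). Its log2 fold changes against control, 0.29 for superovulated and 0.24 for stimulated animals, were 0.10 and 0.05 without control replicate 3, the lowest array. They were 0.42 and 0.37 without control replicate 2.

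ECE1, the enzyme that activates endothelin, was the only one of these genes with several probe sets, 3 in number. The brightest had 9.60, 8.96 and 10.40 in superovulated animals, 9.53, 9.32 and 9.87 in stimulated animals and 9.40, 9.77 and 9.39 in control animals. Superovulated animals held both the lowest and the highest value, in replicates 2 and 3. Its log2 fold change was 0.13 for superovulated against control (95% interval -0.65 to 0.91) and 0.05 for stimulated against control (95% interval -0.73 to 0.83). It was 0.08 for superovulated against stimulated (95% interval -0.70 to 0.86). Superovulated against control was 0.48 without superovulated replicate 2 and -0.24 without superovulated replicate 3. The dimmest of its 3 probe sets followed it from animal to animal, with the lowest signal, 5.14, and the highest, 6.59, in the same 2 superovulated animals. The remaining one had means of 8.95 ± 0.41 in superovulated, 8.87 ± 0.54 in stimulated and 8.50 ± 0.28 in control corpora lutea (SD, n = 3 each), with log2 fold changes of 0.45 and 0.37 against control (limma adjusted p = 0.856 and 0.884). Its stimulated replicate 2 (8.26) lay within the control range of 8.24 to 8.79.

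In the vascular tone genes, NOS3 had 3.02, 3.13 and 3.96 in superovulated animals, 3.25, 3.0 and 3.25 in stimulated animals and 3.25, 3.32 and 3.29 in control animals. Superovulated replicate 3 was the highest, and 3 arrays of the stimulated and control groups carried an identical value. With 37.8% of probe sets below its mean, NOS3 was also near the dim end. The log2 fold change was 0.08 for superovulated against control (95% interval -0.44 to 0.61) and -0.12 for stimulated against control (95% interval -0.64 to 0.41). Superovulated against stimulated gave 0.20 (95% interval -0.33 to 0.72). The first of these was -0.21 without superovulated replicate 3.

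AGTR1 had 5.76, 7.38 and 7.15 in superovulated animals, 8.16, 7.29 and 7.31 in stimulated animals and 7.06, 7.08 and 6.82 in control animals. All 3 stimulated animals were above all 3 controls, and superovulated replicate 1 was the lowest of the 9. The means were 6.76 ± 0.87 in superovulated, 7.59 ± 0.50 in stimulated and 6.99 ± 0.14 in control corpora lutea (SD, n = 3 each). Stimulated against control gave a log2 fold change of 0.60 (95% interval -0.38 to 1.58; limma adjusted p = 0.875), and 0.31 without stimulated replicate 1. Superovulated against stimulated gave -0.82 (95% interval -1.81 to 0.16; limma adjusted p = 0.586), and -0.32 without superovulated replicate 1. Superovulated against control gave -0.22, which turned to 0.28 without superovulated replicate 1.

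**Figure D3:**
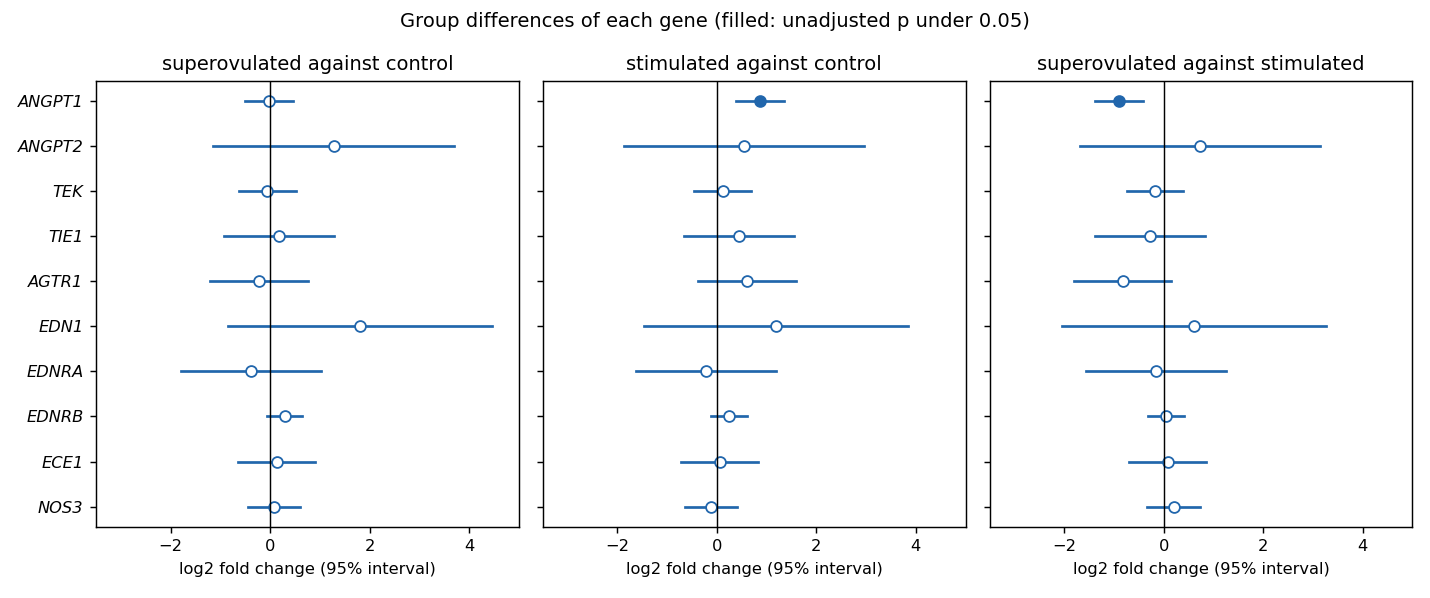
Log2 fold change (horizontal axes) with its 95% interval from the moderated fit for the main probe set of each gene in superovulated against control, stimulated against control and superovulated against stimulated corpora lutea; filled points have an unadjusted p under 0.05. ANGPT1 is filled in both comparisons that involve the stimulated group, and the intervals of ANGPT2 and EDN1 are the widest.

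Read against all probe sets, the genes did not stand out by their counts. For superovulated against control, 0 of the 12 probe sets passed (0% of all probe sets passed in limma) and 0 had an unadjusted p under 0.05, where 6.19% of all probe sets did. None of the 12 had groups that did not overlap, against 10.9% of all. For stimulated against control, 0 of 12 passed, against 0.00417% of all, and 1 of 12 (ANGPT1, 8.33%) had an unadjusted p under 0.05, against 6.38% of all probe sets in either direction and 3.65% with the stimulated group higher. In this comparison 2 of 12 (ANGPT1 and AGTR1) had groups that did not overlap, both with the stimulated animals higher, against 11.5% of all probe sets in either direction and 5.79% in that one. For superovulated against stimulated, 0 of 12 passed, against 0.00417% of all, and 1 of 12 (ANGPT1) had an unadjusted p under 0.05, against 9.64% of all and 5.58% with the superovulated group lower. It was also the only probe set of the 12 whose groups did not overlap, where 13.5% of all probe sets had such groups, 6.89% with the superovulated group lower. In limma's moderated F test over the 3 groups 0 of 12 passed, against 0.00417% of all, and ANGPT1 alone had an unadjusted p under 0.05, against 7.68% of all.

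The median log2 fold change over the 10 genes was 0.11 for superovulated against control, where the median of all 9154 genes was 0.01. It was 0.35 for stimulated against control (-0.003 over all genes) and -0.06 for superovulated against stimulated (0.01 over all genes). Values were positive for 6, 8 and 5 of the 10 genes, where 53.3%, 49.2% and 53.2% of all genes had positive values. Without control replicate 3 the median for stimulated against control was 0.02, without stimulated replicate 2 it was 0.07, and without control replicate 1 it was 0.22. That for superovulated against control was -0.06 without control replicate 3 and 0.27 without superovulated replicate 1. Both comparisons with control share the same 3 control animals.

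Further genes of these pathways were followed in lists, of which 70 of 106 genes were measured. None passed in any comparison. At an unadjusted p under 0.05 there were 3 higher and 1 lower in superovulated against control, 2 higher and 3 lower in stimulated against control, and 1 higher and 2 lower in superovulated against stimulated. Over all 9154 genes the numbers were 287 higher and 195 lower, 384 higher and 282 lower, and 446 higher and 384 lower. The listed genes amounted to 5.71%, 7.14% and 4.29% of those measured. The groups did not overlap for 8, 8 and 7 of the 70 genes (11.4%, 11.4% and 10%). Among all probe sets the shares were 10.9%, 11.5% and 13.5%, so the separations named below were no more frequent than in general.

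**Figure D4:**
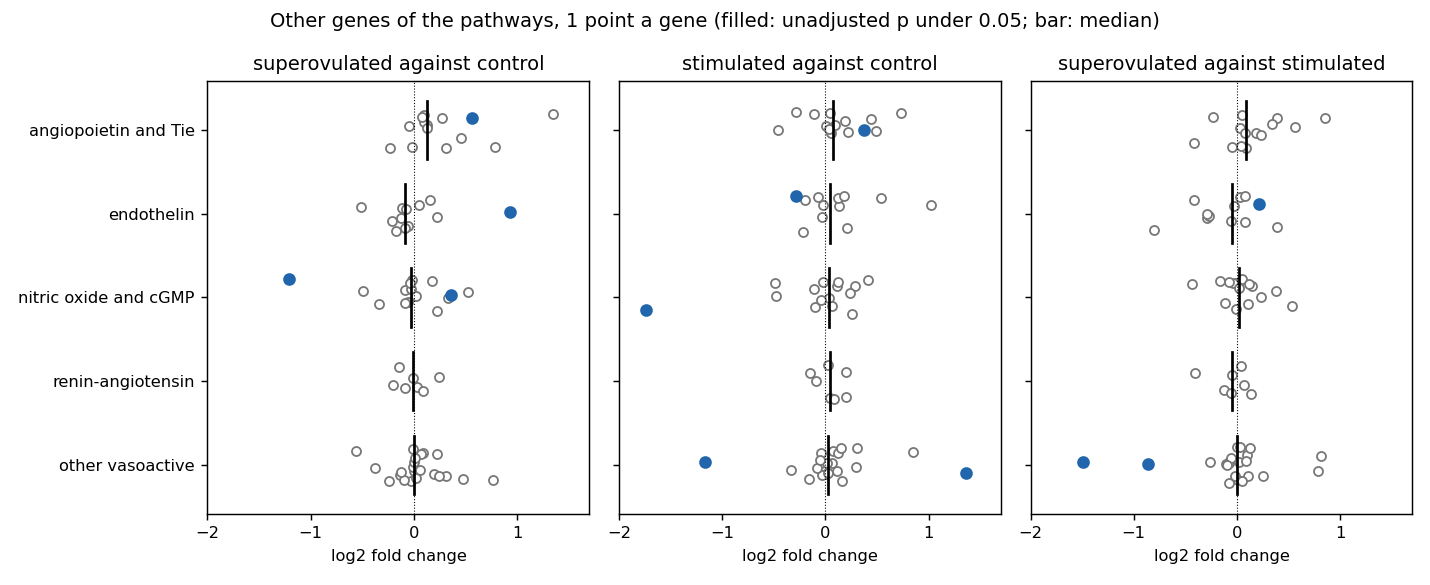
Log2 fold change (horizontal axes) of 70 further genes of the angiopoietin, endothelin, nitric oxide, renin-angiotensin and other vasoactive pathways, 1 point a gene, in superovulated against control, stimulated against control and superovulated against stimulated corpora lutea; bars are list medians and filled points have an unadjusted p under 0.05. The medians lie between -0.08 and 0.13, and NOS2 is the lowest point against control in both treated groups.

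Of the remaining angiopoietin and Tie genes (14 of 20 measured), the median log2 fold change was 0.13 in superovulated against control, 0.07 in stimulated against control and 0.08 in superovulated against stimulated. DOK2, an adaptor that docks on TEK, averaged 4.30 in superovulated, 4.12 in stimulated and 3.74 in control animals, with log2 fold changes of 0.56 and 0.37 against control (limma adjusted p = 0.552 and 0.528). Its 2 other probe sets had -0.06 and 0.10 in superovulated against control and 0.0006 and 0.08 in stimulated against control, so the difference was seen by 1 of 3 probe sets. PTPRB, the endothelial phosphatase that restrains TEK, had 0.73 in stimulated against control (limma adjusted p = 0.780). CCN1, a matrix protein of growing vessels, had 0.79 in superovulated against control, and KLF4, a transcription factor of endothelium and other cells, had 1.34 (limma adjusted p = 0.808 and 0.809). PIK3R1, a regulatory subunit of the kinase that carries the TEK signal, had -0.29 in stimulated against control and 0.38 in superovulated against stimulated animals (limma adjusted p = 0.864 and 0.565). ANGPT4, a further ligand of TEK, was dim at a mean of 3.67.

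In the endothelin list (12 of 18 measured), the medians were -0.08, 0.05 and -0.04 in the same 3 comparisons. MME, a peptidase that degrades endothelin among other peptides, had 0.93 in superovulated and 0.54 in stimulated animals against control (limma adjusted p = 0.802 and 0.864), and its second probe set had 0.82 and 0.53. RHOA, a small GTPase in contraction downstream of endothelin receptors, averaged 11.47 in superovulated, 11.26 in stimulated and 11.55 in control animals. The stimulated animals lay below all others, with a log2 fold change of -0.29 for stimulated against control and 0.21 for superovulated against stimulated (limma adjusted p = 0.463 and 0.400). ARHGEF12, which switches RHOA on, had -0.20 in stimulated against control. ITPR2, a calcium channel of internal stores, had -0.51 in superovulated against control. The signalling genes GNA11 and PLCB4 had -0.42 and -0.29 in superovulated against stimulated, and the main probe set of none of these 4 genes had an unadjusted p under 0.05. A second, dimmer ITPR2 probe set had -0.26 in superovulated against control (limma unadjusted p = 0.0259). The other endothelin ligands EDN2 and EDN3 were dim, with means of 3.31 and 2.18.

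Of the nitric oxide and cGMP genes (15 of 23 measured, medians -0.03, 0.03 and 0.02), the one with the smallest p against control in both treated groups was NOS2, the inducible nitric oxide synthase of immune and stimulated cells. Its signals were 6.49, 6.49 and 6.44 in superovulated animals, 6.39, 5.88 and 5.55 in stimulated animals and 8.05, 8.39 and 6.59 in control animals. Every treated animal was below every control, though control replicate 3 lay close to the superovulated animals. The log2 fold change was -1.21 for superovulated against control and -1.74 for stimulated against control (limma adjusted p = 0.800 and 0.566). A second, dimmer NOS2 probe set, with a mean of 2.91, had -0.31 and -0.40, and the 2 others, with means of 1.67 and 2.1, had values from -0.07 to 0.03. PDE2A, a phosphodiesterase that cGMP stimulates, had 0.36 in superovulated and 0.24 in stimulated animals against control at a mean signal of 3.96. NOSTRIN, which binds NOS3 and takes part in its traffic, had -0.49 against control in both treated groups (limma adjusted p = 0.846 for superovulated and 0.856 for stimulated animals). HSP90AA1, a chaperone that binds NOS3, had -0.12 and NOSIP, which interacts with NOS3, had -0.43 in superovulated against stimulated.

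None of the 7 measured renin-angiotensin genes of 14 listed had an unadjusted p under 0.05, and their log2 fold changes ran from -0.20 to 0.24 in superovulated against control, from -0.15 to 0.20 in stimulated against control and from -0.40 to 0.14 in superovulated against stimulated. CTSZ, a lysosomal protease, had 0.24 in superovulated and 0.20 in stimulated animals against control, and ATP6AP2, the prorenin receptor, had -0.15 in stimulated against control and 0.14 in superovulated against stimulated. The aminopeptidases ENPEP and ANPEP had -0.15 and 0.09 in superovulated against control, and ENPEP had -0.09 in stimulated against control. AGTRAP, which binds AGTR1 and promotes its uptake into the cell, had -0.40 in superovulated against stimulated (limma adjusted p = 0.699). The precursor AGT had -0.13 in that comparison and was dim, with a mean of 2.80, as was AGTR2, the second angiotensin receptor, at 2.79.

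Of the 22 measured of 31 other vasoactive genes, the median log2 fold changes were 0.005, 0.02 and 0.004 in the same order. PTGIS, which makes the vessel relaxant prostacyclin, averaged 9.32 in stimulated and 10.49 in control animals, a log2 fold change of -1.17 (limma adjusted p = 0.718), and all stimulated animals were below all controls. AVPR1A, a vasopressin receptor, averaged 2.75 in superovulated, 4.24 in stimulated and 2.87 in control animals, with 1.36 for stimulated against control and -1.49 for superovulated against stimulated (limma adjusted p = 0.746 and 0.458). RAMP3, a partner of the adrenomedullin receptor, had -0.86 in superovulated against stimulated and -0.56 in superovulated against control (limma adjusted p = 0.400 and 0.809). The relaxant peptide adrenomedullin, ADM, had 0.77 in superovulated and 0.84 in stimulated animals against control (limma adjusted p = 0.850 and 0.844). The sphingosine 1-phosphate receptor S1PR1 had 0.24 in superovulated against control, and F2RL1, a receptor switched on by proteases, had 0.81 in superovulated against stimulated (limma adjusted p = 0.519).

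The genes whose signal was most like that of ANGPT2, TEK, EDN1 and EDNRB across the 9 arrays were sought among 9144 other genes by Pearson's correlation. The other members, ANGPT1 among them, were not searched. This is a description in which the highest values are selected and the arrays include all 3 groups. For ANGPT2 they were EHD2 (r = 0.972, rho = 0.917), RHOB (r = 0.971, rho = 0.983) and CYBRD1 (r = 0.962, rho = 0.833), and 50 genes had r above 0.9. For EDN1 they were FAM171B (r = 0.948, rho = 0.767), SERPINF1 (r = 0.947, rho = 0.967) and MXRA8 (r = 0.934, rho = 0.650), with 21 genes above 0.9. For TEK they were DOCK9 (r = 0.920, rho = 0.933), HYAL2 (r = 0.918, rho = 0.929) and TEAD2 (r = 0.916, rho = 0.904). For the dim EDNRB they were VWCE (r = 0.898, rho = 0.613), AIPL1 (r = 0.887, rho = 0.644) and DIMT1 (r = 0.872, rho = 0.915), with no gene above 0.9.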

How the data were processed

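The deposited values are in no standard unit (other): per the file itself, the numbers of the authors' table are whole digit strings from which the decimal point is missing. The point was put back from the values. Strings open to 2 readings made up 15.5% of cells, and 11 non-control probe sets stayed undecided and were left out. The restored values run from 0.85 to 15.36 and are read as log2 signals; how the authors summarised and normalised them is not given in the sources used here. For ECE1 and TEK, 1 and 2 open values were settled by the other arrays, and the remaining genes had none. No further normalisation was applied (array medians 4.19 to 4.26). Arrays carry no read depth, and their number limits the precision.

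All 24005 probe sets were fitted with limma 3.58.1 (R 4.3.3; lmFit, eBayes) on 9 arrays with 1 mean per group. Tests were 2-sided, adjusted by Benjamini-Hochberg, with a threshold of 0.05, and the fit was tested on simulated data. A gene on several probe sets is represented by that with the highest mean; each of these genes has 1 probe set except ECE1, which has 3. All 10 symbols stand in RefSeq's Bos indicus gene table, used for names alone, and no position was taken from it. The genes, the lists and the rule for named genes (all members, and up to 3 genes of each pathway list with the smallest p in a comparison) were chosen with earlier results of these data known. Genes of the likeness search are the 3 with the highest correlation. Cell type markers, the RNA quality controls shown, ANGPT4, EDN2, EDN3 and AGTR2 were singled out beyond that rule after their values were seen. Replicates are separate animals per the labels, which do not say that a replicate number marks a shared source; deviations of same-numbered superovulated and stimulated arrays correlated above 0.1 in all 3 pairs, which those with control arrays did not. Alternatives were quantile normalisation, leaving out dim probe sets or single arrays, a replicate block, fits on 2 groups, probe sets without open strings, trend and robust moderation, and the mean of a gene's probe sets.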

Additional observations from a re-analysis of the deposited data

How the results depend on the processing

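The count of passing probe sets among the 12 was 0 in every comparison and in the F test under each alternative that gives one (the mean of a gene's probe sets gives no such count, and fits on 2 groups give no F test), and 0 of 471 alternative single-gene values had an adjusted p under 0.05 in limma. At an unadjusted p under 0.05 the count was 1 for stimulated against control, 0 for superovulated against control and 1 for superovulated against stimulated. Leaving out single arrays gave 1 to 3, 0 to 2 and 1 to 3. The first reached 3 without control replicate 2 (ANGPT1, TIE1, EDNRB) and 2 without stimulated replicate 2 or superovulated replicate 1. The second reached 2 without control replicate 2 and 1 without superovulated replicate 2, and the third reached 3 without superovulated replicate 2. With the replicate number as a block these counts were 2, 1 and 1, the added probe set being that of ECE1 with log2 fold changes of 0.37 and 0.45 against control (limma unadjusted p = 0.0381 and 0.0188). Deviations of same-numbered arrays correlated above 0.1 in 7 of 9 pairs (-0.03 to 0.38), and 5 of 9 arrays correlated best with their own number. Those of arrays with different numbers ran from -0.35 to 0.25. Control replicate 2 had 0.28 with stimulated replicate 2 and 0.34 with superovulated replicate 2. Same-numbered pairs with control arrays also included values of -0.03 and 0.08, so the numbers were not taken to pair the control animals with the treated ones. Whether same-numbered animals shared a source or batch was not tested. Between superovulated and stimulated animals all 3 same-numbered pairs were above 0.1 (0.15 to 0.38), and the block changed no call there. Of the 471 values, 441 kept the sign of the main fit. Many alternatives cannot alter a log2 fold change, for example trend and robust moderation or leaving out an array of the third group. The count is therefore no measure of robustness. Over its 16 alternatives ANGPT1 ran from 0.67 to 0.98 in stimulated against control (limma unadjusted p 0.00308 to 0.0112). In superovulated against stimulated it ran from -1.0 to -0.72. As its groups did not overlap in these comparisons, leaving out an array could not change its sign. The largest shift under quantile normalisation was 0.0644. The cause of the other shifts was not tested.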
